A study of Rattus norvegicus with 8 samples.

Results

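Tropomyosins, transgelins and smooth muscle contractile genes were examined in retinal cells of newborn rats given a Klf4 plasmid. The set was chosen by gene symbol: Tagln, Tagln2, Tpm1, Tpm2, Tpm4, Acta2, Actg2, Cnn1, Cnn2 and Myl9, genes known from earlier work to respond to the transcription factor KLF4. A probe was taken as a member when the RefSeq transcript in the array's own annotation belonged to one of these rat symbols. By that rule 9 of the 10 genes were on the array, with 15 of its 45598 gene probes, and Cnn2 had none. Retinas of Lister hooded rats at postnatal day 0 were electroporated in vitro with pulses of 25 V and 50 ms, kept as explants for 39 hours and dissociated. Transfected cells, marked by GFP, were collected by fluorescence-activated sorting, and their Cy3-labelled RNA was measured on 1-colour Agilent arrays. The control group received a control plasmid and the Klf4 group a plasmid for Klf4 overexpression, with 4 arrays each, numbered 2 to 5. The labels name no other allele, transgene or agent. They do not say which promoter drove the plasmids, or whether same-group samples came from separate animals, so the p-values speak only of sample-to-sample spread, part or all of which may be technical.

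Tropomyosins are coiled-coil proteins that lie along actin filaments and set which motors and binding proteins can reach them. Transgelins and calponins bind actin filaments and carry a calponin homology domain. In smooth muscle these proteins, alpha and gamma smooth muscle actin and the myosin regulatory light chain belong to the contractile apparatus. Many of these genes are driven by serum response factor, which binds the CArG box, and in vascular smooth muscle KLF4, a zinc finger protein that binds CACCC-type sequences, is known as a repressor of several of them. In the retina, Acta2 and its relatives are best known as markers of pericytes and vessel wall cells.

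The promoter sequences of 4 members are shown because these genes differed in their measured values although they belong to one contractile set. They are the 250 bases before the annotated start of each gene in RefSeq's promoter table for GRCr8, which held 8 of the 10 genes and did not list Tagln or Myl9. Coordinates are chr5:62575727-62575976 on the minus strand for Tpm2, chr13:87499158-87499407 on the plus strand for Tagln2, chr1:241172504-241172753 on the minus strand for Acta2 and chr4:117594040-117594289 on the minus strand for Actg2. All are upstream flanks rather than exons. Capitals mark CACCC or its complement GGGTG, and runs of 10 capitals mark a near CArG box, meaning a CArG box with 1 C or G among its inner bases.
Tpm2 promoter: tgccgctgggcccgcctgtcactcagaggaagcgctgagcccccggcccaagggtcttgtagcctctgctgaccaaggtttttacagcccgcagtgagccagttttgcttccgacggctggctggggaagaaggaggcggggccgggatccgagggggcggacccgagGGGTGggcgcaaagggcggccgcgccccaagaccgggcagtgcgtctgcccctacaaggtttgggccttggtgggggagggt
Tagln2 promoter: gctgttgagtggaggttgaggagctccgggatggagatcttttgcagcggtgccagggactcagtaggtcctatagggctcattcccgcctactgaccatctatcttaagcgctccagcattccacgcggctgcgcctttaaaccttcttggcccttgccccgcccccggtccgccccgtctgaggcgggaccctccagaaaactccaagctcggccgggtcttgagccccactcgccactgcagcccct
Acta2 promoter: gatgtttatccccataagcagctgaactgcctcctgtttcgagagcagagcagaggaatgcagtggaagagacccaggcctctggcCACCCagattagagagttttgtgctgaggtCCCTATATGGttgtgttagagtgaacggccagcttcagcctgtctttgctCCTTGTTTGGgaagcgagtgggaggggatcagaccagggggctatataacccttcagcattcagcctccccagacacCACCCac
Actg2 promoter: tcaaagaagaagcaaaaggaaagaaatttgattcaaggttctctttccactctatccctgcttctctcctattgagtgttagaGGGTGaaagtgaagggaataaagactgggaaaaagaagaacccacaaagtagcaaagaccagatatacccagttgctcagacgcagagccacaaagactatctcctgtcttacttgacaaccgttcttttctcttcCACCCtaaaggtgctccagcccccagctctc

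In the Acta2 window, 2 near CArG boxes lay 134 to 125 and 84 to 75 bases before the start, and CACCC occurred 2 times. Actg2 had CACCC or GGGTG 2 times, Tpm2 had GGGTG 1 time, 82 to 78 bases before the start, and Tagln2 had no match to any motif searched. Over all 33469 promoters of the same length, searched on both strands, 49.2% held CACCC, 6.84% a near CArG box and 1.5% a full CArG box. Of the 8 listed genes in the table, 6 held CACCC, 1 a near CArG box and 1, Cnn2, a full one at 71 to 62 bases before its start. A match describes the letters only, and the near CArG pattern was added after the sequences had been seen.

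With Klf4, 3 of the 8 listed genes that could be tested rose (Tpm2, Tagln and Tagln2), none fell and 5 did not pass the test (limma, Benjamini-Hochberg adjusted p under 0.05 over 29988 genes and features). The count of 3 fell to 1 with only the arrays of scan 1, and with scaling to the 75th percentile over gene spots. It also fell to 1 without control array 2 or 4 or Klf4 array 2 or 5. The background was 3.20% of all tested called higher and 0.467% called lower. Of the 8 genes, 5 had a difference above 0 and 3 below, with a median log2 difference of 0.98 against -0.07 over all tested. The groups did not overlap in 4 of the 8, each time with higher Klf4 arrays, against 5.74% of all tested in that direction. These counts carry selections. The list was chosen with earlier results of these data known, so its comparison with all tested is only a description. A probe was kept if 3 or more of the 4 arrays of either group showed it well above background. Tagln entered only through its Klf4 arrays, a selection that favours a higher Klf4 signal. The measured differences of the listed genes were unlike, even within the tropomyosins and the actins. Compared directly within arrays, no gene pair passed after adjustment over 5 pairs (smallest adjusted exact permutation p = 0.0714). The smallest unadjusted p that test allows is 0.0286. The beta tropomyosin, both transgelins and, short of the threshold, gamma smooth muscle actin were higher with Klf4. Acta2, Myl9 and Tpm4 had differences near 0. Cells were pooled in each sample, so more cells of a type and more RNA per cell cannot be told apart.

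**Figure D1:**
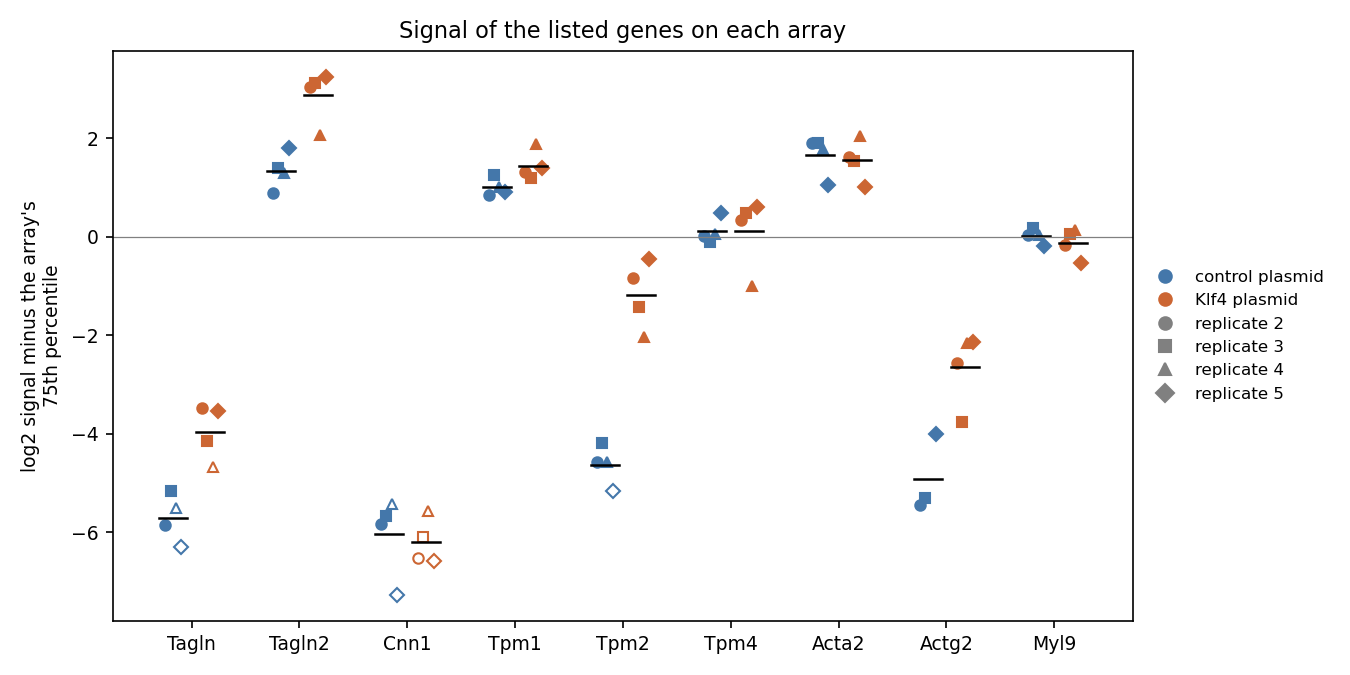
Normalised log2 signal of the representing probe of the 9 listed genes on the array (vertical axis, log2 units relative to each array's 75th percentile), with 1 symbol per array shaped by its number, colour for the group, bars for group means and hollow symbols where the probe was not well above background. The Klf4 symbols lie above all control symbols for Tpm2, Tagln, Tagln2 and Actg2, whose control 4 spot is missing, and the groups overlap for Tpm1, Tpm4, Acta2, Myl9 and Cnn1.

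Tpm2, the beta tropomyosin of muscle, had the largest difference among the listed genes. All values that follow are log2 signals relative to the array's own 75th percentile, so 0 is the level of that percentile and no probe's level can be set against another's. The representing probe, A_64_P144482, read -4.58, -4.19, -4.58 and -5.16 on control arrays 2 to 5, and -0.84, -1.43, -2.04 and -0.46 on Klf4 arrays 2 to 5. Every Klf4 array was above every control array, and Klf4 array 5 was the highest. On the linear scale before scaling, the processed signals lay between 20.4 and 94.2 in the controls and between 357 and 871 with Klf4. The mean rose from -4.63 ± 0.40 (SD, n = 4) to -1.19 ± 0.69 (SD, n = 4), a log2 difference of 3.44 with SE 0.35 and limma adjusted p = 0.000968. That is a 10.8-fold difference with a 95% interval of 6.21 to 18.9. Control array 5 was not well above background at this probe, and with normexp background correction the log2 difference was smaller, 2.36, below that interval, and still passed. The difference was 3.01 among the arrays of the first scan and 4.71 between the single pair of the second scan.

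The other Tpm2 probes were annotated to another transcript, NM_001024345, whereas A_64_P144482 was annotated to NM_001301235. Probe A_44_P1042783 was well above background on none of the 4 control arrays and on all 4 Klf4 arrays, where it read -2.48, -3.12, -3.93 and -2.14. With dim control values raised as described next, its signal was 8.52-fold higher with Klf4. For that fold the Klf4 mean over all its arrays was set against a raised control mean. The raised mean took, on each array, the probe's own signal or, if higher, the array's dimmest signal that stood well above background. As measured, the log2 difference was 4.10 (limma adjusted p = 0.00189 with every kept probe fitted on its own). With normexp it was 1.58, smaller than that fold, so 8.52 is no lower limit. This probe was kept only through its Klf4 arrays, a selection that favours a higher Klf4 signal. Probe A_43_P10874 was above background on all 8 arrays and read -4.34, -4.64, -4.51 and -4.93 in the controls and -2.47, -3.22, -3.99 and -1.88 with Klf4. The groups again did not overlap, and its log2 difference was 1.72, with limma adjusted p = 0.0674 in the fit of every kept probe. Without Klf4 array 4, the lowest Klf4 array on all 3 probes, that difference was 2.08 and passed the test (limma adjusted p = 0.00905). Of the 19 alternatives run for this probe, added after the data had been seen, 6 passed and 13 did not. Their differences ran from 0.97, with normexp, to 2.11, with limma adjusted p of 0.0023 to 0.227. The differences at A_43_P10874 and A_64_P144482 were themselves unequal by 1.72 log2 units, with exact two-sided permutation p = 0.0286, the smallest that 4 against 4 arrays allow. Adjusted over the 10 same-gene probe pairs compared, the permutation p was 0.143. Probes of the same transcript were also unequal. A_43_P10874 minus A_44_P1042783 changed by -2.38 log2 units (exact permutation p = 0.0286, adjusted 0.143), with the latter dim in the controls. A_64_P144482 minus A_44_P1042783 changed by -0.66 (exact permutation p = 0.171, adjusted 0.571).

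**Figure D2:**
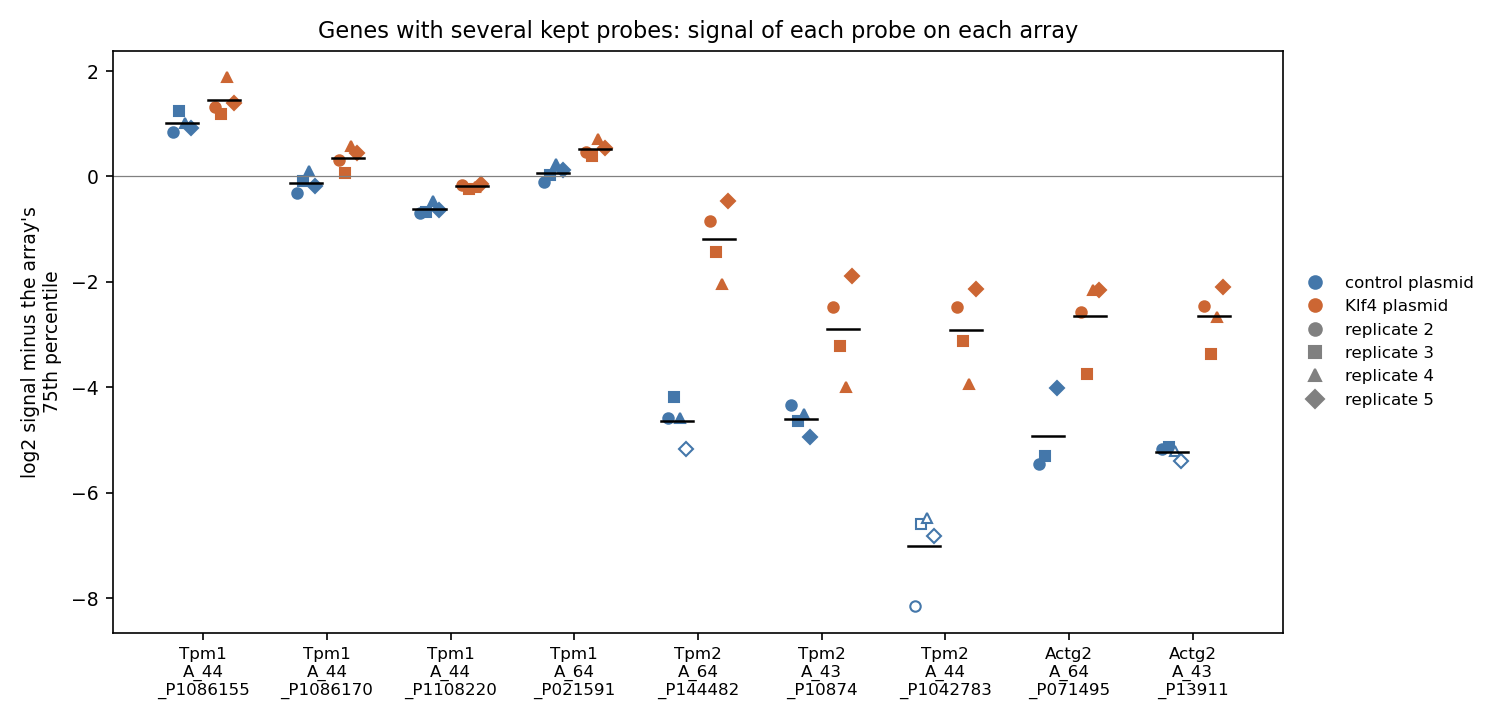
Normalised log2 signal (vertical axis) of each probe of Tpm1, Tpm2 and Actg2, with 1 symbol per array shaped by its number, colour for the group, bars for group means and hollow symbols where not well above background. The 3 Tpm2 probes and both Actg2 probes are higher on each Klf4 array than on any control array measured, and the 4 Tpm1 probes show differences of 0.44 to 0.47.

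Tpm1, the alpha tropomyosin, is expressed in muscle and in many other cells, and its 4 probes gave nearly the same difference. The representing probe, A_44_P1086155, printed in 10 spots on each array, read 0.85, 1.25, 1.01 and 0.91 in the controls and 1.32, 1.18, 1.88 and 1.39 with Klf4. Klf4 array 3 lay below control array 3, so the groups overlapped. The means were 1.01 ± 0.18 (SD, n = 4) and 1.44 ± 0.31 (SD, n = 4), a log2 difference of 0.44 with SE 0.18 and limma adjusted p = 0.371, which did not pass. Its 95% interval ran from 0.03 to 0.85. The other Tpm1 probes had log2 differences of 0.44, 0.46 and 0.47 with limma adjusted p of 0.0978, 0.144 and 0.221 when every kept probe was fitted. At A_44_P1108220 and A_64_P021591 the groups did not overlap. The differences between pairs of Tpm1 probes changed by no more than 0.03 log2 units between groups.

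Tpm4 encodes a tropomyosin of non-muscle cells. Its single probe read 0.02, -0.10, 0.06 and 0.49 in the controls and 0.34, 0.49, -0.996 and 0.61 with Klf4. Klf4 array 4 was the lowest of all 8 arrays, and the other Klf4 arrays lay within or just above the control range. The log2 difference was -0.01 with SE 0.35 and a 95% interval of -0.80 to 0.78 (limma adjusted p = 0.997). Without Klf4 array 4 it was 0.36 (limma adjusted p = 0.354), without control array 5 it was 0.12, and without either array numbered 4 it was 0.34. Its sign also turned under other scalings, to 0.03 each with quantile normalisation, the array median and the deposited values, none of which passed the test.

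The tropomyosin genes were compared with each other within each array, through the difference between their probes. Tpm2 rose relative to Tpm1 by 3.00 log2 units between the control and Klf4 means and relative to Tpm4 by 3.44, and neither difference overlapped between groups. Both had exact two-sided permutation p = 0.0286, the smallest that 4 against 4 arrays allow, and p = 0.0714 after adjustment over the 5 gene pairs compared. Tpm1 relative to Tpm4 changed by 0.45 (exact permutation p = 0.657, adjusted 0.657).

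Tagln encodes transgelin, also called SM22 alpha, a standard marker of differentiated smooth muscle. Its probe, printed in 2 spots, read -5.86, -5.16, -5.51 and -6.31 in the controls and -3.48, -4.14, -4.67 and -3.54 with Klf4. Every Klf4 array was above every control array, with Klf4 array 4 the lowest of its group. The signal was dim, well above background on 2 of 4 control and 3 of 4 Klf4 arrays, and the SD between its spots reached 0.77 on 1 array. The probe was thus kept only through its Klf4 arrays, a selection that favours a higher Klf4 signal. The mean rose from -5.71 ± 0.49 (SD, n = 4) to -3.96 ± 0.56 (SD, n = 4), a log2 difference of 1.75 with SE 0.33 and limma adjusted p = 0.0230, or 3.37-fold with a 95% interval of 2.00 to 5.68. The call was lost with normexp background correction, where the difference was 0.71 (limma adjusted p = 0.118), and with only the arrays of scan 1, where it was 1.41 (limma adjusted p = 0.128). It was also lost without control array 2, 4 or 5, with limma adjusted p of 0.0843, 0.0588 and 0.0515, and without Klf4 array 2, 3 or 5, with 0.0805, 0.0570 and 0.0713. The difference without 1 of these arrays lay between 1.55 and 1.82. With the 75th percentile over gene spots, added after the data had been seen, it was 1.66 and did not pass (limma adjusted p = 0.0526). The closing section gives a further setting that ended the call.

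Tagln2, a relative of Tagln found in many cell types outside muscle, was measured well above background on all 8 arrays and in 10 spots each. It read 0.88, 1.39, 1.30 and 1.79 in the controls and 3.04, 3.12, 2.07 and 3.25 with Klf4. The groups did not overlap, and Klf4 array 4 was again the lowest of its group. Spots of 1 array differed with an SD of 0.034 to 0.075 log2 units, far below the spread between arrays. The mean rose from 1.34 ± 0.37 (SD, n = 4) to 2.87 ± 0.54 (SD, n = 4), a log2 difference of 1.53 with SE 0.29 and limma adjusted p = 0.0255, or 2.88-fold with a 95% interval of 1.81 to 4.60. The call was lost in the first scan alone, where the difference was 1.55 (limma adjusted p = 0.0789). It was also lost without control array 2, 3 or 4, with limma adjusted p of 0.0852, 0.0731 and 0.0827, and without Klf4 array 2, 3 or 5, with 0.0926, 0.0823 and 0.0784. Without 1 of these arrays the difference lay between 1.38 and 1.54. With the 75th percentile over gene spots, added after the data had been seen, it was 1.44 and did not pass (limma adjusted p = 0.0528). Between the transgelins the within-array difference changed by 0.22 log2 units (exact permutation p = 0.629, adjusted 0.657).

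The smooth muscle actins gave unlike values. Actg2, gamma smooth muscle actin of gut and other visceral muscle, had 2 probes annotated to NM_012893. Its representing probe, A_64_P071495, read -5.45, -5.31 and -4.01 on control arrays 2, 3 and 5, and -2.57, -3.75, -2.15 and -2.14 on Klf4 arrays 2 to 5. The spot on control array 4 was marked in the deposited file as a non-uniform outlier and left out. Before scaling it read 9.96 on the log2 scale, against 5.09 to 5.51 on the other controls. The groups did not overlap, with a log2 difference of 2.27, SE 0.50 and limma adjusted p = 0.0565, which did not pass. Its 95% interval ran from 1.11 to 3.43.

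The second Actg2 probe, A_43_P13911, was measured on all 8 arrays. It read -5.18, -5.12, -5.21 and -5.40 in the controls and -2.46, -3.37, -2.67 and -2.10 with Klf4. The controls were close together and every Klf4 array was higher. Only 2 of the 4 controls were well above background, so this probe was kept only through its Klf4 arrays. That selection favours a higher Klf4 signal. It rose from -5.23 ± 0.12 (SD, n = 4) to -2.65 ± 0.53 (SD, n = 4), a log2 difference of 2.58, or 5.98-fold, with limma adjusted p = 0.000800 when every kept probe was fitted. That call held under all 19 alternatives run for this probe, which were added after the data had been seen, with differences of 1.35 to 2.82 and limma adjusted p of 0.000308 to 0.0112. The gene passed with the mean over both probes, which includes this one and its selection, at 2.46 (limma adjusted p = 0.00291). It also passed without control array 5, at 2.72 (limma adjusted p = 0.0338), and without Klf4 array 3, at 2.63 (limma adjusted p = 0.0238). In the authors' deposited log2 values, which keep the bright control spot, the first probe's difference was 1.18 (limma adjusted p = 0.777). Actin transcripts are much alike, and probe sequences were not used here, so cross-hybridisation was not tested.

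Acta2, alpha smooth muscle actin, is the usual marker of contractile pericytes, vessel smooth muscle and myofibroblasts. It was well above background on every array and read 1.90, 1.89, 1.79 and 1.05 in the controls and 1.62, 1.53, 2.03 and 1.01 with Klf4. The groups overlapped, and both arrays numbered 5, which were the only arrays of the second scan, were the lowest of their groups. The means were 1.66 ± 0.41 (SD, n = 4) and 1.55 ± 0.42 (SD, n = 4), a log2 difference of -0.11 with SE 0.27, a 95% interval of -0.72 to 0.50 and limma adjusted p = 0.952. Within the first scan the difference was -0.13 and in the second -0.04, and without Klf4 array 5 it was 0.07. Actg2 relative to Acta2 was higher with Klf4 by 2.33 log2 units over the 7 arrays with both values (exact permutation p = 0.0857, adjusted 0.143).

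Myl9, a regulatory light chain of smooth muscle and non-muscle myosin, read 0.04, 0.18, 0.04 and -0.18 in the controls and -0.17, 0.06, 0.14 and -0.54 with Klf4. The groups overlapped, again with both arrays numbered 5 lowest. The log2 difference was -0.15 with SE 0.18, a 95% interval of -0.55 to 0.26 and limma adjusted p = 0.854. Cnn1, calponin of differentiated smooth muscle, was well above background on 2 of 4 control arrays and no Klf4 array, and so fell outside the filter. Its probe read -5.83, -5.66, -5.42 and -7.27 in the controls and -6.52, -6.09, -5.57 and -6.60 with Klf4, with overlapping groups. Fitted with no filter on dim probes, its log2 difference was -0.15 with SE 0.43 (limma adjusted p = 0.974).

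Over the 22 alternative settings tried, Tpm2 had limma adjusted p of 2.59e-05 to 0.0137, Tagln 0.00194 to 0.128, Tagln2 0.000161 to 0.0926 and Actg2 0.00291 to 0.777. Only Tpm2 of these 4 genes passed in each setting, with differences of 2.36 to 3.73, and Tpm1, Tpm4, Acta2 and Myl9 passed in none.

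**Figure D3:**
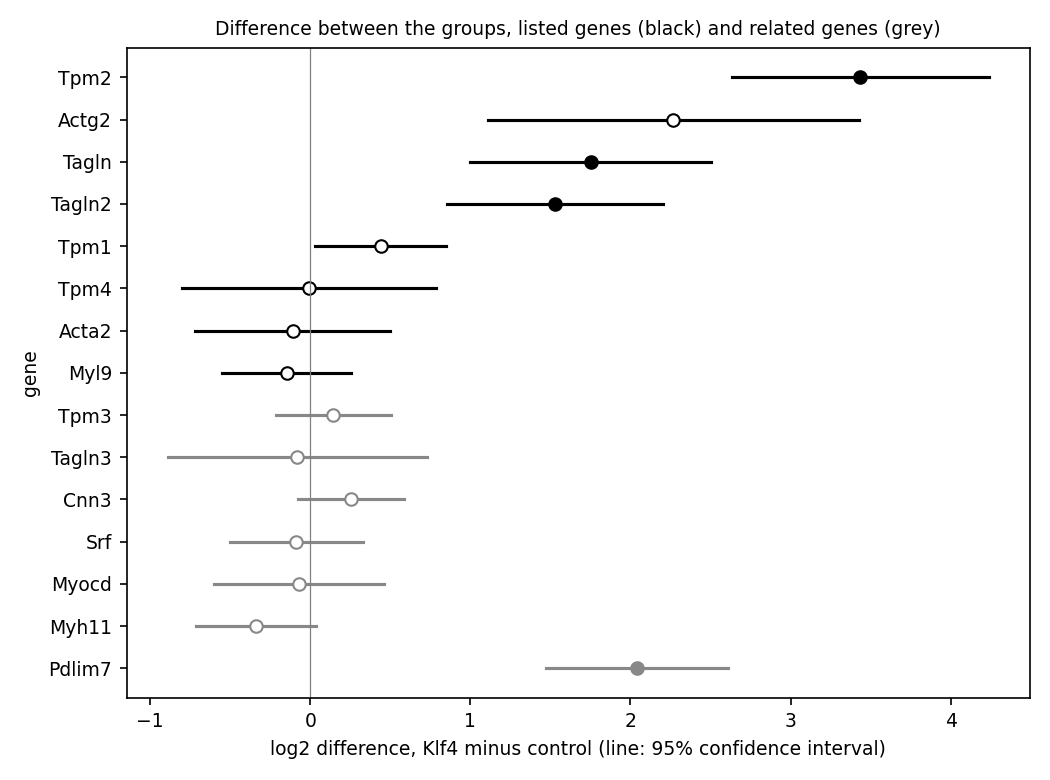
Log2 difference, Klf4 minus control (horizontal axis), with its 95% interval as a line, for the 8 tested listed genes in black and 7 related genes in grey, where a filled point marks limma adjusted p under 0.05. Tpm2 stands at 3.44, Actg2 at 2.27 with an open point, Tagln at 1.75 and Tagln2 at 1.53, the intervals of Tpm4, Acta2 and Myl9 include 0, and of the related genes Pdlim7 alone is filled, at 2.04.

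**Figure D4:**
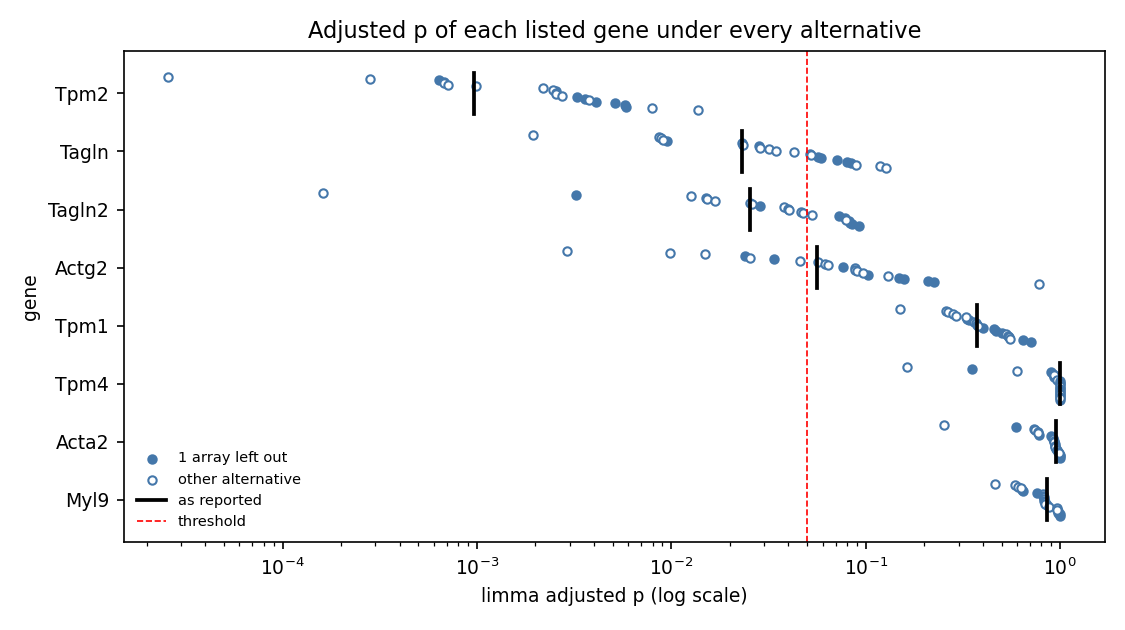
Limma adjusted p of each tested listed gene (horizontal log axis) as reported (black bar), with 1 array left out (filled points) and under the other alternative settings (hollow points), with a dashed line at the threshold of 0.05. All Tpm2 points lie left of the line, those of Tagln, Tagln2 and Actg2 fall on both sides, and all of Tpm1, Tpm4, Acta2 and Myl9 lie right of it.

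Genes around the contractile set were read from the same fit. Of 24 other actin and actin-binding genes, 22 were tested and 1 rose, Pdlim7, a PDZ and LIM domain protein of the actin cytoskeleton, from 0.37 ± 0.22 to 2.41 ± 0.49 (SD, n = 4 each), a log2 difference of 2.04 with SE 0.25 and limma adjusted p = 0.00245. None fell, and the median of the 22 was 0.13. The remaining family members did not pass: Tpm3, a tropomyosin of most cell types, had a difference of 0.14 (limma adjusted p = 0.830), Tagln3, the neuronal transgelin, -0.08 (limma adjusted p = 0.977) and Cnn3, a calponin of non-muscle cells, 0.25 (limma adjusted p = 0.595). None of the 15 tested genes for myosin and its light chain control passed, with a median of 0.11. Among them was Myh11, the smooth muscle myosin heavy chain, with a difference of -0.34 (limma adjusted p = 0.486).

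Neither the main regulator of the CArG box nor its tested partners passed the test. Srf, which encodes serum response factor, had a log2 difference of -0.09 (limma adjusted p = 0.936), and Myocd, its smooth muscle coactivator, -0.07 (limma adjusted p = 0.970). In all 5 genes among the 9 listed symbols for serum response factor and its cofactors were tested, with a median of -0.07. Mrtfa and Mrtfb, its actin-sensing coactivators, were listed also under their older symbols Mkl1 and Mkl2 and had no matched probe under either. Of 13 listed symbols for targets of serum response factor outside contraction, 10 were tested and none passed, with a median of 0.42. Ccn2, a matricellular protein named here after its value was seen, came closest with a difference of 2.33 (limma adjusted p = 0.0666).

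Markers of cells that normally express contractile genes moved unevenly with the groups. Of 12 smooth muscle and pericyte markers 9 were tested and 2 rose. These were Mcam, a cell adhesion molecule, with a log2 difference of 1.74 (limma adjusted p = 0.000414), and Cspg4, a surface proteoglycan of pericytes, with 1.62 (limma adjusted p = 0.00368). The others did not pass, among them Pdgfrb at -0.86, Ndufa4l2 at -0.56, Myh11 at -0.34 and Des at -0.05, and of the 9 differences 5 were above 0 and 4 below, with a median of 0.03. Rgs5, Abcc9 and Higd1b, which define pericytes, were well above background on none of the 4 control arrays, and of these only Rgs5 was so with Klf4, on 1 array. The mean log2 level of the 9 ran from -2.24 to -1.89 in the controls and from -2.09 to -1.53 with Klf4. Endothelial markers had 5 of 10 tested and 2 higher, Tek and Esam, and the mean level of the 5 ran from -1.79 to -1.40 in the controls and from -0.86 to -0.19 with Klf4. That separation rests on Tek, with a log2 difference of 2.38, and on Esam. Esam was well above background on 0 control and 3 Klf4 arrays, so it entered only through Klf4. Kdr, Cdh5 and Flt1 had differences of 0.03, -0.01 and -0.02. Of 8 fibroblast markers 4 were tested and 1 rose, Col1a1, by 1.36 log2 units (limma adjusted p = 0.00123), while Col1a2, Pdgfra and Col3a1 had differences of -0.47, -0.44 and -0.17 that did not pass. Lum and Twist1 were not well above background on any array, and the mean level of the 4 overlapped, -1.10 to -0.73 against -0.93 to -0.67. Of 5 astrocyte markers 4 were tested and 1 rose, S100b, which was well above background on 2 control and 4 Klf4 arrays and so also entered only through Klf4. The mean level of the 4 ran from -4.95 to -3.52 in the controls and from -3.30 to -2.87 with Klf4, with S100b at a difference of 3.80 and Aldh1l1, Pax2 and Gfap at 0.20, -0.09 and -0.40. No lens or pigment epithelium marker passed, with 5 of 7 and 2 of 7 tested. All 10 retinal markers were well above background on all arrays and 1, Crx, fell, with a mean level of 2.00 to 2.14 in the controls and 1.55 to 1.85 with Klf4. The part of these markers in the values of Tpm2, Tagln, Tagln2 and Actg2 was not tested.

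Genes with patterns most like 2 of the members were ranked by Pearson r over the 8 arrays, which share the Klf4 contrast. Nearest to Tpm2 were Ptprm (r = 0.998), Nptxr (r = 0.997), Bag3 (r = 0.997) and Emp3 (r = 0.997), with log2 differences of 1.35, 1.95, 1.75 and 1.63. Nearest to Acta2 were RGD1562890 (r = 0.990), Acvr1c (r = 0.989), F13a1 (r = 0.983) and LOC103691735 (r = 0.982), whose differences lay between -0.29 and 0.05. A high r with Tpm2 or with Acta2 largely fixes whether a gene differs between the groups, so these differences are a description.

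Some features of the arrays touch all of these values. The 75th percentile of the processed signal ran from 732 to 1718, between 72.1% and 86.5% of gene spots were well above background, and no gene spot was saturated. The arrays lay on 1 slide, with controls and Klf4 samples in different columns, so slide column and group cannot be told apart. The arrays numbered 4 each had 1 of 10 quality metrics out of range, that of the negative control signal, and the share of spots above background was lowest on Klf4 array 4. The Klf4 probe itself read -3.27 ± 0.62 in the controls and -2.998 ± 0.86 with Klf4 (SD, n = 4 each), a log2 difference of 0.27 with SE 0.46 and limma adjusted p = 0.916. No source used here places this probe within or outside the inserted Klf4 sequence, so the value is no check on the group labels.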

How the data were processed

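Total RNA of 4 control and 4 Klf4 samples was hybridised to 1-colour arrays scanned with Agilent Feature Extraction 10.7.3.1, per the file headers. The deposited intensity values are the processed signal of each spot, background-corrected by that software. The deposited flags for outliers, background and control spots mark spots with other codes, per the file headers. The authors' deposited table of log2 values, 45735 probes, had equal deciles in all columns to within 0.000787 and a median of 7.54 each. Centring and direction of that table are those of plain log2 signals, and no source used here names the normalisation method.

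From the intensities, spots of a probe were averaged on the log2 scale after control and outlier spots were left out, and each array's 75th percentile over gene probes was subtracted. A probe was kept where most of its spots were well above background on at least 3 of 4 arrays of a group. Where a gene had several kept probes the one of highest mean stood for it, and 29988 genes and features were tested two-sided with limma 3.58.1 in R 4.3.3. Intervals are 95%. Of 45598 gene probes, 21109 matched 1 symbol through RefSeq transcripts and 24489 none. The files' headers name an older rat build, so only promoter coordinates of GRCr8 are given.

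Members and lists were chosen with earlier results of these data known. Named were the 10 genes, related genes past the threshold (at most 6 a list), Tpm3, Tagln3, Cnn3, Srf, Myocd, Mrtfa, Mrtfb and Myh11, and the 4 genes most correlated with Acta2 and with the member of smallest adjusted p. Alternatives changed the scaling, background correction (normexp with offset 50 on the median signal, since the mean signal was not used here), filter, probe rule, blocks, array weights and arrays left out. The numbers were to be taken as pairs only if every same-numbered pair of arrays correlated above 0.1. This held in 3 of 4 pairs, with r of 0.355, 0.243 and 0.551 for numbers 2, 3 and 5. Number 4 had r = 0.0608, so the main fit was unpaired, although most pairs met the criterion. Methods were tested on simulated data.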

Additional observations from a re-analysis of the deposited data

Results flagged for a closer look

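In 3 of 29 groups of 4 arrays tested, 1 array stood apart from the other members of its group by Dixon's criterion, which chance meets in about 1 of 20 groups. Acta2 read 1.05 on control array 5, where the next control was 1.79 and the highest 1.90. Tpm1 probe A_44_P1108220 read -0.46 on control array 4, where the next control was -0.65 and the lowest -0.68. Tpm4 read -0.996 on Klf4 array 4, where the next was 0.34 and the highest 0.61.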

How the results depend on the processing

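Tpm2 kept its direction and call in all 22 alternatives, with differences of 2.36 to 3.73, Tpm1 and Myl9 stayed short of the threshold in all 22, and no listed gene was called lower in any. The number of listed genes called higher fell from 3 to 1 in the first scan alone and with the 75th percentile over gene spots, an alternative added after the data were seen, and ran from 1 to 3 when 1 array was left out, with 1 without control array 2 or 4 or Klf4 array 2 or 5. In those settings Tagln had 1.41 and 1.66 and Tagln2 had 1.55 and 1.44, below the threshold, and Tagln also missed it with normexp (0.71). Without 1 array, Tagln ran from 1.55 to 1.99, Tagln2 from 1.38 to 1.79, Actg2 from 2.00 to 2.72, Acta2 from -0.31 to 0.069 (without Klf4 replicate 5) and Tpm4 from -0.18 to 0.36. Actg2 passed with the mean over probes (2.46), scan as a block (2.35), slide row as a block (2.07) and array weights (2.22). Tpm4 turned to 0.029 with quantile normalisation, 0.026 with the array median and 0.025 with the deposited values, 0.37 with array weights and 0.34 without both arrays numbered 4. The cause of these changes was not tested.

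With the replicate block, Tagln kept 1.75 but missed the threshold (limma adjusted p = 0.0886), Actg2 passed at 2.10 (limma adjusted p = 0.0459), and 3 listed genes were called higher. The numbers did not meet the criterion for pairs, although 3 of 4 controls correlated best with the Klf4 array of their own number.

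Over all genes, 961 were called higher, against 635 in the first scan alone, 1805 with array weights and 604 to 1221 without 1 array (fewest without Klf4 array 2). The 140 called lower became 93 with the array median, 70 with no filter, 255 with scan as a block, 48 in the first scan alone, 1171 with array weights and 32 to 406 without 1 array (most without Klf4 array 4). Targets of serum response factor outside contraction had 2 higher with quantile normalisation and with the deposited values, 1 each with the array median, normexp and the replicate block, 3 with array weights, where 1 was lower, and 0 to 1 without 1 array (1 without control array 3 or Klf4 array 4). The cofactor list had 1 higher with the mean over probes. Other actin genes had 4 higher and 1 lower with array weights, 2 higher without both arrays numbered 4, and 1 to 3 higher and 0 to 1 lower without 1 array (the most without Klf4 array 4), and the myosin list had 1 lower with array weights. Dim probes limit Tagln, Cnn1 and the control levels of Tpm2 and Actg2, where signals lie near background.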
